A study of Mus musculus with 4 samples.

Results

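Peaks of the histone mark H3K36me2 were examined inside very long genes of mouse bone marrow mesenchymal stem cells (MSCs), which can form osteoblasts, adipocytes and chondrocytes. The members are all peaks of 2 deposited lists that overlap, by 1 bp or more, the body of a protein-coding gene of 300 kb or more in the GRCm38 RefSeq gene table. They number 908 of 7699 peaks in cells given 1 µM melatonin for 24 hours and 1020 of 8361 peaks in untreated cells. The table holds 557 such genes among 21631 protein-coding genes on chromosomes 1 to 19 and X. Gene length and not peak strength chose the members. At the threshold, Zfp423 (300.2 kb, 1 melatonin and 0 untreated peaks) and Kcnq3 (300.3 kb, none) fell inside, while Akap13 (299.1 kb) and Atp2b2 (298.8 kb) fell outside and held no peak in either list.

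The MSCs of both groups were grown in DMEM with serum, and only the treatment label tells the groups apart, since the treatment protocol text is the same for all samples. Per the labels, the melatonin and the untreated condition had 1 ChIP library and 1 input library each, and the labels give no strain, age, sex or vehicle for either. The series' design text speaks of old donors, but the sample labels do not. The peak finder counted 14180076.5 tags in the melatonin ChIP library and 13198427.5 in the untreated one. With 1 library a condition, no value here has a replicate check, every difference is one between 2 libraries, and no p-value between conditions was computed. Intervals cover counting error only and treat peaks as independent, and sequence without a listed peak may still carry the mark. Among defining marker genes of any length, 1 of 12 marrow stroma genes held a melatonin peak and 3 of 12 an untreated peak. The counts were 0 and 0 of 8 blood genes, 2 and 1 of 5 endothelial genes, and 2 and 2 of 5 neuronal genes. Over all 21631 protein-coding genes, 5.54% held a melatonin peak and 5.27% an untreated peak. The sets are small and not matched for length, and the neuronal genes with a peak, Map2 and Syt1, are 267 and 513 kb long. A peak of this mark does not measure expression, so these counts do not check the cell type.

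H3K36me2 is dimethylation of histone H3 at lysine K36, written by enzymes of the NSD family (NSD1, NSD2, NSD3) and by ASH1L. It is known to spread over intergenic sequence and over parts of gene bodies, while the trimethylated form, laid down by SETD2 behind elongating RNA polymerase, marks the bodies of transcribed genes. Very long genes consist almost wholly of intron. Many encode neuronal adhesion molecules and receptors, and several contain common fragile sites, chromosome regions that break under replication stress.

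Few annotated transcription start sites were overlapped by a peak, inside long genes or elsewhere, and the only start-site windows that lay wholly within a member peak are shown here. The RefSeq promoter table (GRCm38.p6) holds 639 windows of 300 bases, 250 before and 50 after a start, for 425 of the long genes. Of these windows, 2 were overlapped by a melatonin peak and 1 by an untreated peak, a rate close to that over all genes (68 and 47 of 32851 windows). One of the melatonin pair was at Lrmda, where the peak ended just before the gene body and is no member. The others were at Pde1a, which encodes a calcium- and calmodulin-dependent cyclic nucleotide phosphodiesterase, and at Plcb4, which encodes a phospholipase C. A further 2 windows lay wholly within a member peak, those of Gm35280, a noncoding RNA gene inside Cntnap2, and of 4930564C03Rik, annotated as protein-coding, inside Supt3. The windows are printed 5′ to 3′ on the strand of their own gene, with each CG dinucleotide in capitals.
Pde1a, minus strand, chr2:79908350-79908649, melatonin peak: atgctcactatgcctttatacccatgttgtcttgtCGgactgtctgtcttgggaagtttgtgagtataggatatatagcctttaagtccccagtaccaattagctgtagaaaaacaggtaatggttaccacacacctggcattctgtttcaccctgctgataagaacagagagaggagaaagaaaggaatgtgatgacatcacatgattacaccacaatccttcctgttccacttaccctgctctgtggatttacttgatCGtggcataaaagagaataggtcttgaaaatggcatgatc
Plcb4, plus strand, chr2:135764588-135764887, untreated peak: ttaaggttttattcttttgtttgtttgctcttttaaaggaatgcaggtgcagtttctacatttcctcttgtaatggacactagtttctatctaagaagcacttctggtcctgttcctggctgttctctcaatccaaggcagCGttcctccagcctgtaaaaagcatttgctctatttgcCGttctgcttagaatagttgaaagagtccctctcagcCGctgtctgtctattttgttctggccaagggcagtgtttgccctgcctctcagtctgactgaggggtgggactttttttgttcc
Gm35280 inside Cntnap2, minus strand, chr6:47205381-47205680, melatonin peak: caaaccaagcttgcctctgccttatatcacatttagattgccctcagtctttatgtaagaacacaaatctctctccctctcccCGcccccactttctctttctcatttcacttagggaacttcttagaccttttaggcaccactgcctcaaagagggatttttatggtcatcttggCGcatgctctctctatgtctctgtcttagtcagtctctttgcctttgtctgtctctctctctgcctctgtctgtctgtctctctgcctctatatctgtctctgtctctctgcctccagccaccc
4930564C03Rik inside Supt3, minus strand, chr17:44880836-44881135, untreated peak: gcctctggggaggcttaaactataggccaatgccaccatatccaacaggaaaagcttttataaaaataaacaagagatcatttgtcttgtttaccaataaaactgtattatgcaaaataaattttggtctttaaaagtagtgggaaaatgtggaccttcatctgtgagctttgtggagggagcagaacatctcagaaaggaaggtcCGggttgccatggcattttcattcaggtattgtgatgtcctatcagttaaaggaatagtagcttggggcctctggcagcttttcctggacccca
These windows held fewer CG than the median window. They held 2 (Pde1a), 3 (Plcb4), 2 (Gm35280) and 1 (4930564C03Rik), against a median of 7 over all 32851 windows of the table and of 13 over the 639 windows of long genes. Such low numbers were not rare, since 23.3%, 31.4%, 23.3% and 14.1% of all windows, in the same order, held as few or fewer. At least 1 CG was present in 94.6% of all windows. The letters TATAAA, searched on both strands, were present in the Pde1a and 4930564C03Rik windows and in 13.6% of all windows. By the authors' fold over input, the Pde1a peak was just above the required fold of 4, at 4.02 (16.1 scaled ChIP tags over 4 input tags). The Plcb4 peak had a fold of 4.85 (26.5 over 5.5), near the untreated members' median of 4.88. The Pde1a peak lay 288 kb from the outermost start of the gene and the Plcb4 peak 106 kb from it, so neither was at the first start of its gene.

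Long genes, counted together, carried peaks at about the rate of their chromosomes. The long gene bodies cover 316.6 Mb, 12.1% of the sequence where peaks could be placed. They held 11.8% of the melatonin peaks (95% Wilson interval 11.1 to 12.5) and 12.2% of the untreated peaks (11.5 to 12.9). Per Mb of long gene body there were 2.87 melatonin peaks (exact Poisson interval 2.68 to 3.06) and 3.22 untreated peaks (3.03 to 3.43). Even placement of the same peaks, each kept at its width and on its chromosome, gives 954 melatonin and 1030 untreated members. The observed numbers were 0.952 times that with melatonin (0.891 to 1.02) and 0.991 times that without (0.931 to 1.05). Even placement was not limited to mappable sequence or to sites with little input, and the part of either in these ratios was not tested.

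The rate was higher in the classes from 100 kb to 1 Mb than in shorter genes, and lower again in the longest class. These classes count peak midpoints, and each base belongs to its longest gene. Genes under 10 kb held 0.497 melatonin peaks per Mb (Poisson interval 0.278 to 0.82) and 0.663 untreated peaks per Mb (0.405 to 1.02). Genes of 10 to 30 kb held 0.96 with melatonin and 0.725 without, and genes of 30 to 100 kb held 1.42 and 1.37. Genes of 100 to 300 kb held 2.77 (2.58 to 2.96) and 2.81 (2.62 to 3.01). The 330 genes of 300 to 500 kb held 3.37 (3.06 to 3.71) and 3.43 (3.11 to 3.77), and the 168 genes of 500 kb to 1 Mb held 3.16 (2.83 to 3.5) and 3.62 (3.28 to 4). Both of these classes overlapped in their intervals with sequence outside protein-coding genes, which held 3.45 (3.36 to 3.54) with melatonin and 3.81 (3.72 to 3.91) without. Across all genes under 300 kb the rate was 1.87 (1.77 to 1.97) with melatonin and 1.84 (1.74 to 1.94) without, below the intervals of the long genes in both libraries. As ratios to even placement, with melatonin and without, genes under 10 kb lay at 0.18 and 0.225, genes of 10 to 30 kb at 0.338 and 0.238, and genes of 30 to 100 kb at 0.482 and 0.431. Genes of 100 to 300 kb were much nearer to even placement, at 0.899 (0.839 to 0.963) and 0.842 (0.786 to 0.901).

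The 59 genes of 1 Mb or more stood apart from the other long genes. They held 1.66 melatonin peaks per Mb (1.39 to 1.97) and 2.29 untreated peaks per Mb (1.97 to 2.65), or 0.603 (0.504 to 0.715) and 0.791 (0.68 to 0.914) times even placement. In the class of 300 to 500 kb the ratios to even placement were 1.08 (0.976 to 1.18) and 1.01 (0.914 to 1.11), and in that of 500 kb to 1 Mb they were 1.04 (0.933 to 1.15) and 1.09 (0.99 to 1.21).

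**Figure D1:**
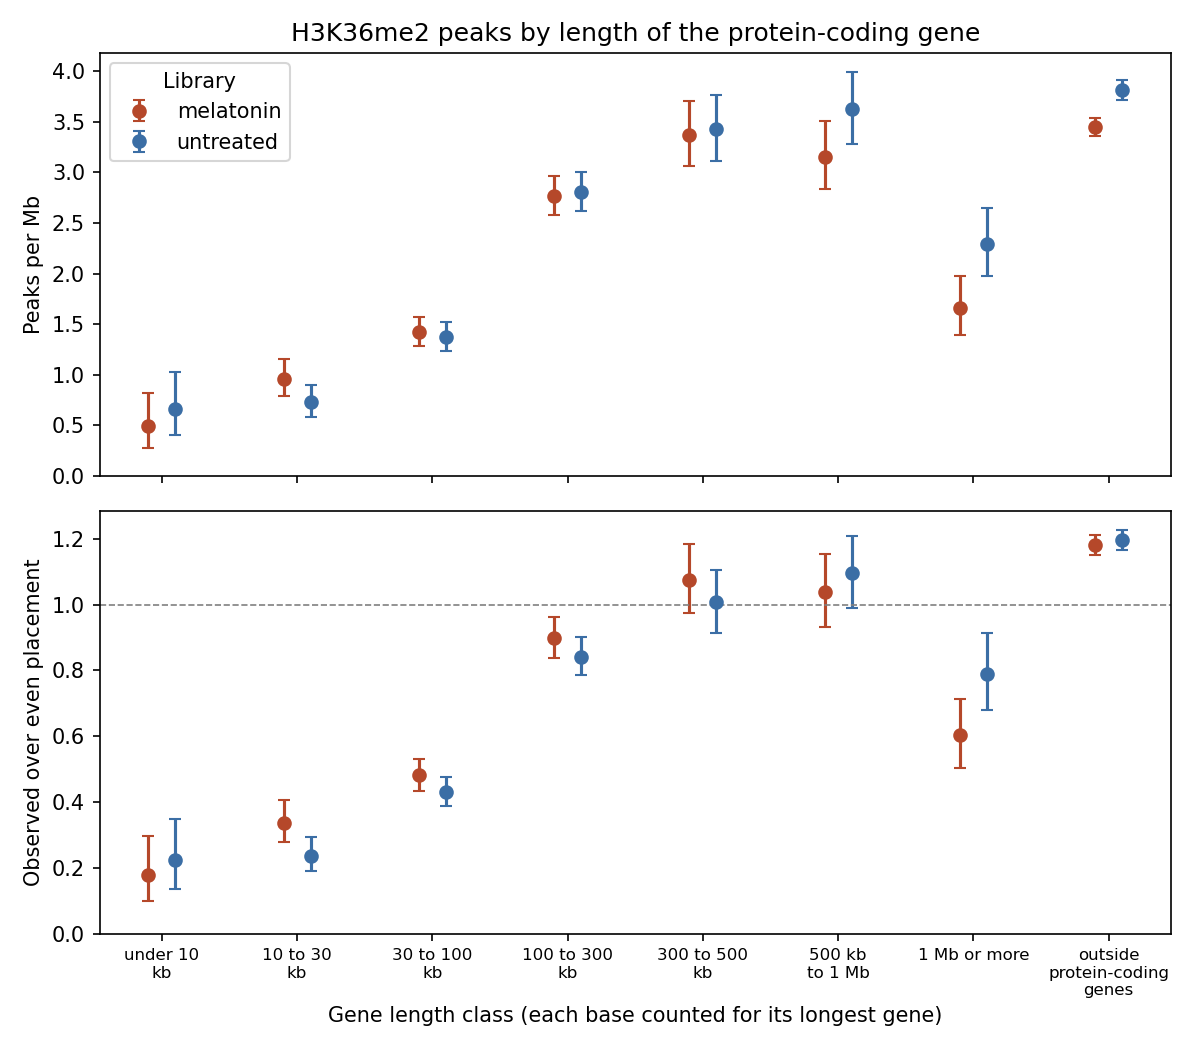
Peaks per Mb (upper panel) and observed over evenly placed peaks (lower panel, dashed line at 1) by gene length class, for the melatonin and the untreated library, counted by peak midpoint. Points are the counts of 1 library and bars the exact 95% Poisson intervals. The rate is under 1 per Mb in the shortest class, 3.37 and 3.43 per Mb at 300 to 500 kb, and 1.66 and 2.29 per Mb in genes of 1 Mb or more.

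The sequence beside the long genes held melatonin peaks at a somewhat higher rate than the genes, and untreated peaks at much the same rate. Within 500 kb on either side, leaving out other long gene bodies, there were 3.28 melatonin and 3.42 untreated peak midpoints per Mb, against 2.87 and 3.21 inside the genes. Inside over beside was 0.874 with melatonin (exact binomial interval 0.804 to 0.949) and 0.94 without (0.868 to 1.02). In genes of 1 Mb or more it was 0.722 with melatonin (0.562 to 0.929) and 1.17 without (0.918 to 1.5).

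Chromosomes differed widely. The members' rate ran from 0.285 per Mb on chromosome 16 to 6.48 on chromosome 13 with melatonin, and from 0.199 per Mb on the X chromosome to 7.4 on chromosome 13 without. The long genes exceeded even placement on 9 of 20 chromosomes in each list. On chromosome 12 they held 71 melatonin and 83 untreated peaks, 1.83 and 2.04 times even placement, and on chromosome 14 they held 94 and 95, 1.6 and 1.67 times. Much of this lay in few genes. On chromosome 12, Hdac9 held 22 and 21, Immp2l 14 and 16 and Rad51b 12 and 13, and on chromosome 14, Lrmda held 29 and 24. The long genes of chromosome 10 held 55 and 61, 0.485 and 0.505 times even placement. Only chromosome 16 with melatonin lay lower, at 0.294 times. The X chromosome, poor in peaks of any kind, held 7 melatonin and 3 untreated members in 24 long genes, 2.2 and 0.943 times even placement.

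A near-even total hid a very uneven spread over genes. A melatonin peak lay in 260 of the 557 long genes (46.7%) and an untreated peak in 251 (45.1%), against a background of 5.54% and 5.27% over all 21631 genes. Longer genes offer more sequence, so these backgrounds are not matched for length. Both libraries marked 197 long genes (35.4%, background 2.67%), melatonin alone 63 (11.3%, background 2.87%) and untreated alone 54 (9.69%, background 2.59%). No peak of either list lay in 243. By length, a melatonin and an untreated peak lay in 149 and 142 of the 330 genes of 300 to 500 kb, in 85 and 83 of the 168 genes of 500 kb to 1 Mb, and in 26 and 26 of the 59 longest. No member lay in more than 1 long gene, while 8 melatonin and 15 untreated members also lay in a shorter protein-coding gene. The 56 genes with the most peaks held 53.8% of the members of both lists. There were 63 genes with 10 or more peaks over both lists and 70 with a single one. Of 128 long genes where even placement gives 5 or more peaks over both lists, 42 had none. Across the 557 genes, the numbers of melatonin and untreated peaks gave Pearson's r = 0.823 and a Spearman coefficient of 0.705, a description over genes that share gene length and regional peak density.

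**Figure D2:**
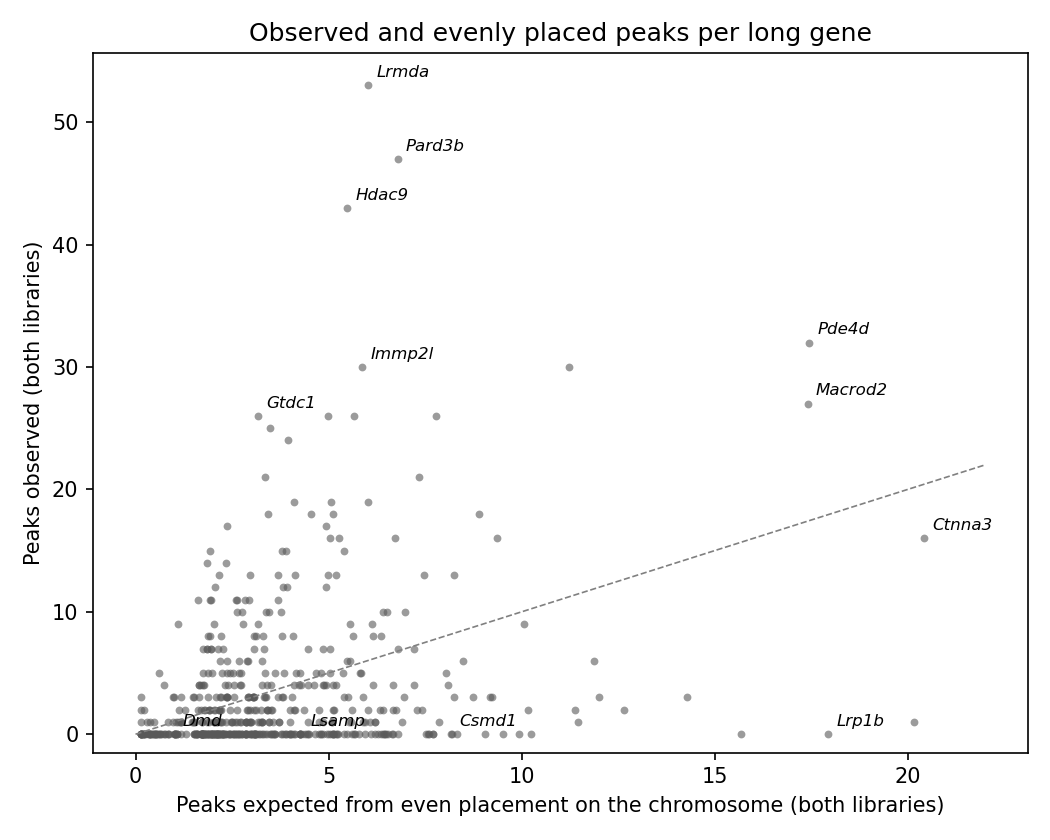
Peaks observed in each of the 557 long genes (both libraries together, vertical axis) against the number that even placement on its chromosome gives (horizontal axis). Each point is a gene and the dashed line marks equality. Lrmda, Pard3b and Hdac9 lie far above the line with 53, 47 and 43 peaks, and Lrp1b lies at 0.

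The most heavily marked long gene was Lrmda, which encodes a leucine-rich melanocyte differentiation protein (chr14:22019504-23056093). It held 29 melatonin and 24 untreated peaks, where even placement gives 3.06 and 2.96. Its melatonin folds ran from 4.02 to 16.1 with a median of 5, and its untreated folds from 4.03 to 7.83 with a median of 4.81. The peaks ran through most of the gene, from 5.91 to 1010 kb from its start with melatonin and from 124 to 1013 kb without. The longest stretch free of a peak of either list was 68.2 kb. None of these 53 peaks overlapped a peak of the other library.

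Pard3b, a cell polarity gene (chr1:61638667-62642284), held 16 melatonin and 31 untreated peaks, where even placement gives 3.16 and 3.63. Hdac9, a class IIa histone deacetylase gene (chr12:34047580-34917095), held 22 and 21, against 2.68 and 2.81, and 3 of its peaks in each list overlapped across the libraries. Over both lists together, peaks ran from 8.55 to 995 kb from the start in Pard3b, where the first untreated peak lay at 106 kb. In Hdac9 they ran from 53.5 to 867 kb. The longest stretches free of a peak of either list were 97.3 kb in Pard3b and 111 kb in Hdac9.

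Further genes with many peaks had roles in signalling, mitochondria and DNA repair or none well known. Pde4d, a cyclic AMP phosphodiesterase gene on chromosome 13, held 15 and 17 peaks, nearer to even placement (7.71 and 9.74). Immp2l, an inner mitochondrial membrane peptidase gene on chromosome 12, held 14 and 16. Arhgap15, a GTPase-activating protein gene on chromosome 2, held 12 and 14, and Samd12 on chromosome 15 held 14 and 12. Sugct, a mitochondrial glutarate CoA-transferase gene, held 10 and 20. Macrod2, an ADP-ribose hydrolase gene and fragile site, held 9 and 18, against 8.27 and 9.14 from even placement. Prkg1, the cyclic GMP-dependent kinase gene, held 7 and 19, against 4 and 3.78. Rad51b, a recombination gene named after its values were seen, held 12 and 13.

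By density, the leading long genes with at least 5 peaks were Gtdc1, a glycosyltransferase-like gene on chromosome 2, with 35.8 peaks per Mb in each library, and Samd12, with 27.8 melatonin and 23.8 untreated peaks per Mb. Lrmda had 28 and 23.2 per Mb, Hdac9 25.3 and 24.2, and Plcl1, which encodes a phospholipase C-like protein, 20.1 and 28.7. All of these lay above 20 per Mb in both libraries, against 2.87 and 3.22 over all long gene bodies.

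**Figure D3:**
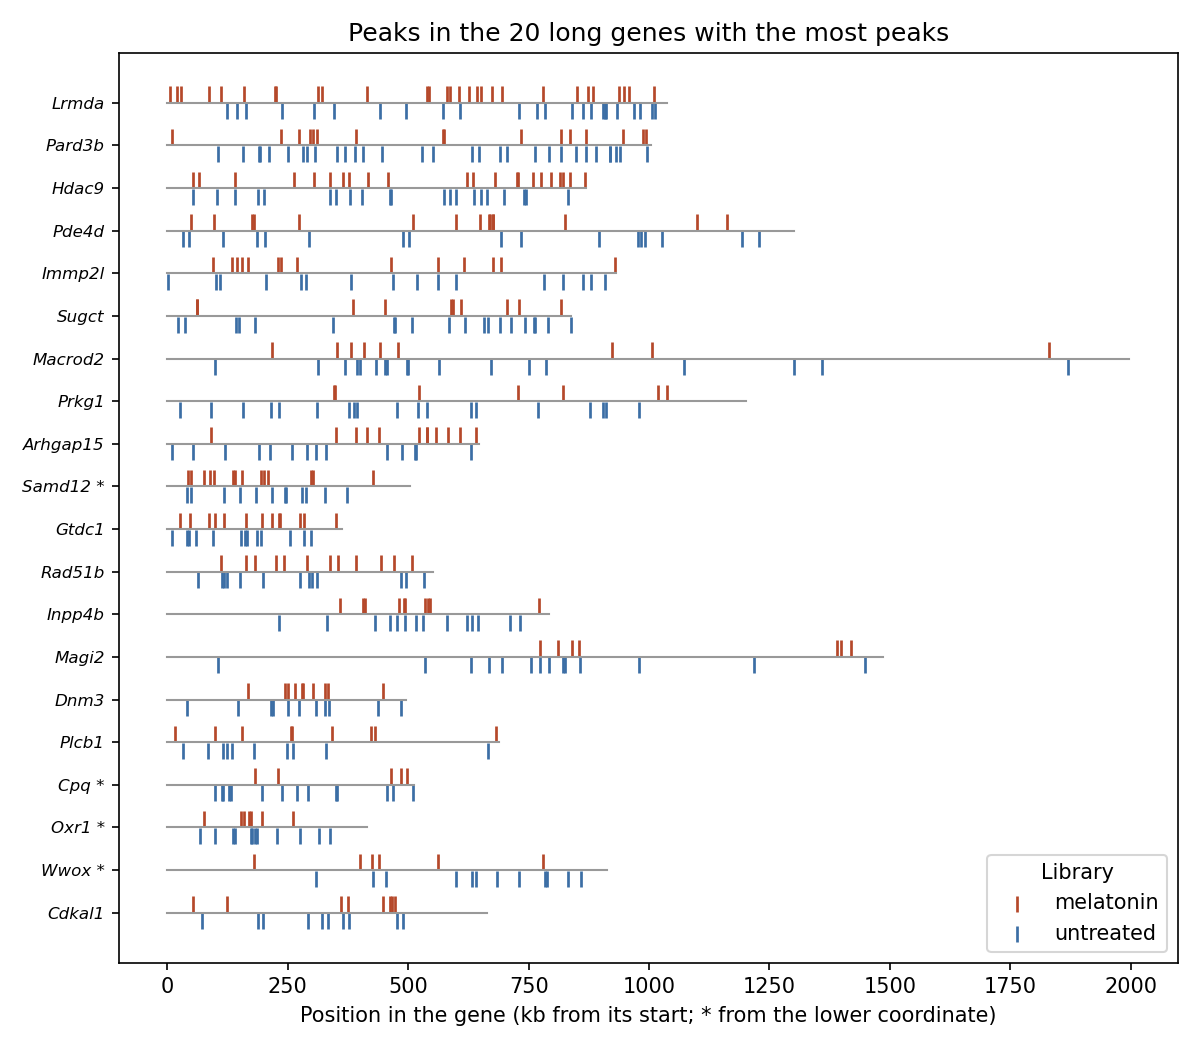
Positions of melatonin peaks (marks above each line) and untreated peaks (marks below) in the 20 long genes with the most peaks. The horizontal axis is kb from the gene's start, or from its lower coordinate where the promoter table gives no strand (asterisk). Lrmda, Pard3b and Hdac9 are marked along most of the gene, and marks of the libraries seldom coincide.

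In other genes the peaks lay unevenly along the gene. Fhit, a dinucleotide hydrolase gene and fragile site of 1612 kb on chromosome 14, held 9 melatonin and 7 untreated peaks, all beyond 919 kb from its start. Its first peak lay at 919 kb with melatonin and at 966 kb without. Magi2, a scaffold protein gene of 1485 kb, had 0 of 7 melatonin and 5 of 14 untreated peaks in the part of the gene nearer its start, split at the middle. Ctnna3, an alpha catenin gene of 1574 kb, had 6 of 6 melatonin and 8 of 10 untreated peaks there. The untreated peaks still ran through most of both genes, from 106 to 1449 kb in Magi2 and from 110 to 1397 kb in Ctnna3. Inpp4b, a phosphoinositide phosphatase gene, had 1 of 10 melatonin and 2 of 14 untreated peaks in the part nearer its start. Its first peak lay at 358 kb with melatonin and at 232 kb without. Fhit and Inpp4b are described here because of this layout, seen after their values.

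The longest genes without a peak in either list were Dmd (the dystrophin gene, 2390 kb), Lsamp (a neuronal adhesion gene, 2197 kb), Lrp1b (a lipoprotein receptor gene, 2058 kb), Csmd1 (a complement control gene, 1643 kb) and Robo2 (an axon guidance receptor gene, 1555 kb). Even placement gives few peaks for Dmd on the X chromosome (0.504 in each library) and for Lsamp (2.13 and 2.17) and Robo2 (1.51 and 1.54) on chromosome 16. It gives 8.52 melatonin and 9.42 untreated peaks for Lrp1b on chromosome 2, and 4.07 and 4.1 for Csmd1 on chromosome 8. Cntnap2, a contactin-associated protein gene of 2241 kb, held 1 peak in each library, where even placement gives 6.72 and 5.94.

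Gene groups among the long genes differed in how many members carried a peak. The lists were written with earlier results of these data known, so their counts are a description. Of 54 long signalling enzyme and scaffold genes, 32 (59.3%) held a melatonin peak and 34 (63%) an untreated peak, against 46.7% and 45.1% of all long genes. Their median over both lists was 3 peaks per gene, against 1 over all 557 long genes. Summed, they held 163 melatonin and 214 untreated peaks, 1.54 and 1.88 times even placement. Pard3b, Pde4d, Prkg1 and Arhgap15 led the group. Without a peak were, for example, Nrg3, a neuregulin gene, and Dock2, a guanine exchange factor gene of leukocytes. The list is mixed, since it takes in Pcdh9, a protocadherin gene (0 and 2). Sgcz, a sarcoglycan gene without a peak, is counted both here and in the matrix, cytoskeleton and muscle list.

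Of 36 long transcription factor and cofactor genes, 22 (61.1%) held a melatonin peak and 20 (55.6%) an untreated peak, against the same 46.7% and 45.1%, with a median of 2.5 peaks per gene over both lists. Their sums of 88 and 91 peaks were 1.65 and 1.62 times even placement, and 22 and 21 of these lay in Hdac9. Esr1, the estrogen receptor alpha gene, held 13 and 5. Sox5, a cartilage factor gene, held 5 and 10, and Rarb, a retinoic acid receptor gene, held 6 and 9. Zfpm2, a GATA cofactor gene, held 3 and 4. Runx2, the osteoblast lineage factor, held 1 and 2, against 0.766 and 0.756 from even placement. Rbfox1, a neuronal splicing factor gene, and Ebf1, a B cell and stromal factor gene, held none in either list. The group is mixed, since Rbfox1, Rbfox3 and Celf2 (5 and 8), among others, encode RNA-binding proteins and not transcription factors.

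The synaptic adhesion and axon guidance list was marked least. Of its 53 long genes, 18 (34%) held a melatonin peak, 19 (35.8%) an untreated peak and 29 neither, against 46.7% and 45.1% of all long genes with a peak. The median was 0 peaks over both lists. Their sums of 45 and 55 peaks were 0.348 and 0.405 times even placement. These genes had a median length of 857 kb, against 451 kb over all long genes, and the part of length in their low counts was not tested. Among the members with the most peaks were Ctnna3 (6 and 10), Sema6d, a semaphorin gene (10 and 6), and Ptprk, a receptor phosphatase gene (4 and 3). Dcc and Robo1, guidance receptor genes, and Tenm2 and Tenm3, teneurin genes, held none.

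Of 41 long ion channel and neurotransmitter receptor genes, 16 (39%) held a melatonin peak and 15 (36.6%) an untreated peak, against 46.7% and 45.1% of all long genes, with a median of 0 and sums of 36 and 39, or 0.495 and 0.514 times even placement. Nalcn, a sodium leak channel gene, held 5 and 7, and Chrm3, a muscarinic receptor gene, held 7 and 3. Trpm3, a cation channel gene, held 6 and 3, and Cacna2d1, a calcium channel subunit gene, held 1 and 5. The glutamate receptor genes Grid1, Grik1, Grik2, Grik4, Grin2a and Grin2b held no peak.

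Of 53 long genes in the matrix, cytoskeleton and muscle list, 23 (43.4%) held a melatonin peak and 21 (39.6%) an untreated peak, near the 46.7% and 45.1% of all long genes, and the sums of 108 and 108 were 0.903 and 0.849 times even placement. The members with the most peaks, Lrmda, Immp2l, Macrod2 and Wwox, an oxidoreductase gene and fragile site (6 and 12), are not matrix or muscle genes. Among matrix members, Lama2, a laminin chain gene, held 9 and 4, and Gpc6, a glypican gene, held 6 and 3. Many other matrix members held none in either list, among them the glypican genes Gpc3 and Gpc5, the collagen genes Col19a1 and Col22a1, the proteoglycan genes Spock1 and Spock3, and the protease gene Adamts17. Dmd, Utrn (2 and 0) and Sgcd (2 and 1), of the dystrophin complex of muscle, carried few.

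**Figure D4:**
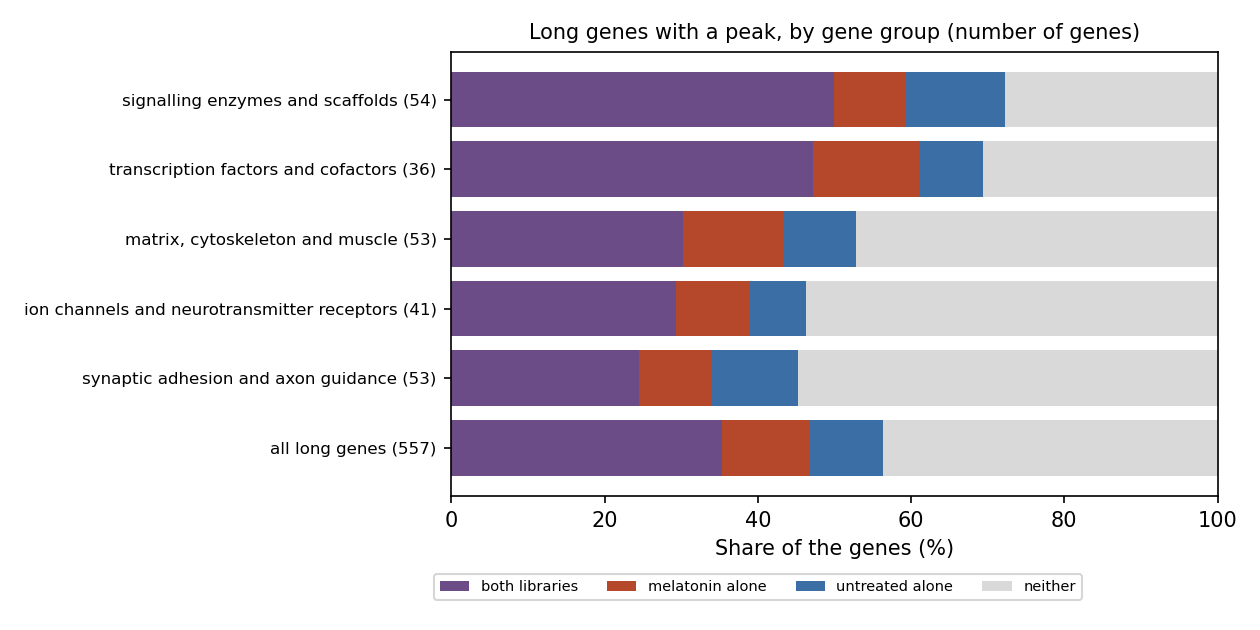
Share of long genes with a peak in both libraries, in melatonin alone, in untreated alone or in neither (horizontal axis, %), by gene group, with all 557 long genes at the bottom. No peak was found in 15 of 54 signalling genes and in 29 of 53 synaptic adhesion genes.

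Between the libraries, long genes held 0.89 melatonin peaks for each untreated peak (908 over 1020, exact binomial interval 0.813 to 0.974), against 0.925 (0.895 to 0.956) outside them. The intervals overlap. Among peaks with an authors' fold of at least 6, the long-gene ratio was 1.14 (0.958 to 1.35), so its side of 1 depends on the peak threshold. Outside long genes, 2028 melatonin and 1763 untreated peaks reached that fold, so melatonin peaks were the more numerous there too. By midpoint, the ratio was 0.984 (0.858 to 1.127) at 300 to 500 kb, 0.871 (0.753 to 1.01) at 500 kb to 1 Mb and 0.725 (0.575 to 0.912) at 1 Mb or more, against 0.921 over all peaks. Leaving out 1 gene at a time, the last ratio ran from 0.652 without Lrmda to 0.768 (0.598 to 0.985) without Pard3b. Without Pard3b, as without some of the others, the interval took in the 0.921 of all peaks.

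Single genes differed in both directions. Melatonin peaks exceeded untreated ones most in Esr1 (13 and 5), Atrnl1, an attractin-like gene (9 and 1), Tnr, the tenascin R gene (8 and 2), Lrmda (29 and 24), Lama2 (9 and 4) and, with the same difference of 5, Msra, a methionine sulfoxide reductase gene (6 and 1). Untreated peaks exceeded melatonin ones most in Pard3b (16 melatonin and 31 untreated), Prkg1 (7 and 19), Sugct (10 and 20), Macrod2 (9 and 18) and Cpq, a carboxypeptidase gene (5 and 14). Of 127 long genes with 5 or more peaks over both lists, 19 (15%) held at least 2 times as many melatonin as untreated peaks, against a background of 18.7% over all 219 such genes of any length, the long ones included. At least 2 times as many untreated as melatonin peaks were held by 28 (22%), against a background of 23.3%. Among the 92 such genes under 300 kb, the counts were 22 (23.9%) and 23 (25%). The difference between long and shorter genes was not tested.

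**Figure D5:**
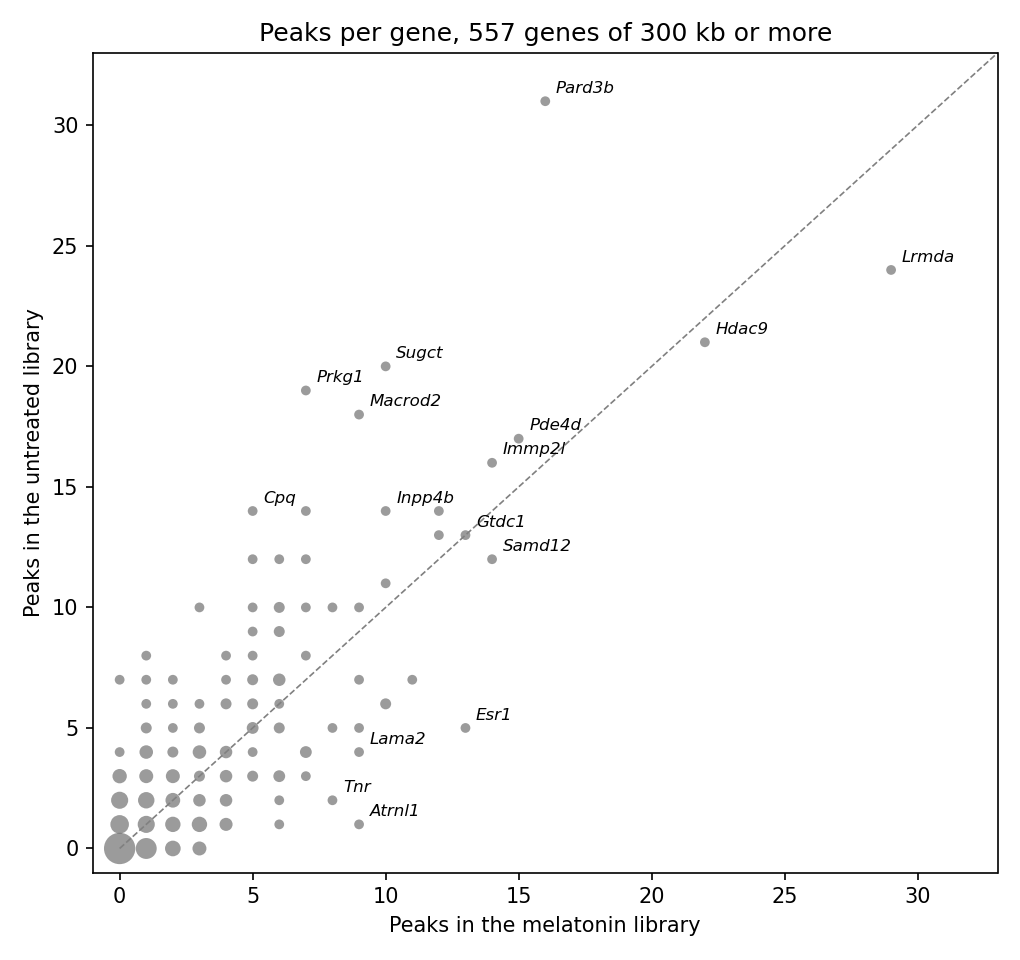
Number of melatonin peaks (horizontal axis) and untreated peaks (vertical axis) in each of the 557 long genes. Larger points stand for more genes at the same pair of values, and the dashed line marks equal numbers. Esr1, Tnr and Atrnl1 lie below the line, and Pard3b, Prkg1 and Sugct above it.

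A smaller share of peaks coincided between the libraries inside long genes than outside, a difference with no replicate check. Of the melatonin members, 33 (3.63%, Wilson interval 2.6 to 5.06) overlapped an untreated peak, against 6.45% (5.89 to 7.06) of melatonin peaks outside long genes. Of the untreated members, 32 (3.14%, 2.23 to 4.4) overlapped a melatonin peak, against 5.94% (5.42 to 6.5) outside. The median number of other-library peaks within 500 kb was 8 inside and 7 outside for melatonin and 7 inside and 8 outside for untreated peaks. The nearest other-library peak lay farther away inside long genes, at a median of 29 kb inside and 25.1 kb outside for melatonin and of 35 kb inside and 25.8 kb outside for untreated peaks. At 10 or more such neighbours, 5.05% of melatonin members (3.26 to 7.76) overlapped, against 10.8% outside (9.71 to 12.1). For untreated peaks the values were 4.94% (3.11 to 7.77) inside and 9.44% (8.45 to 10.5) outside. At 5 to 9 neighbours they were 4.18% (2.41 to 7.16) and 5% (4.12 to 6.06) with melatonin, and 2.63% (1.44 to 4.78) and 4.97% (4.13 to 5.97) without, so the intervals overlapped there. Under 5 neighbours they were 0.816% (0.224 to 2.93) and 2.2% (1.66 to 2.91) with melatonin. Without melatonin they were 1.69% (0.724 to 3.89) and 2.03% (1.51 to 2.71), so these intervals overlapped too. The upper quartile of neighbours was lower inside, at 12 against 15 with melatonin and 11 against 14 without.

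The overlapping pairs of highest mean fold percentile in long genes were in Dnm3, Esr1, Hdac9, Dlg2 and Magi2. In Hdac9 the best pair lay at chr12:34863057-34864057 with melatonin (fold 6.96) and chr12:34863092-34864092 without (fold 4.98), 53.5 kb from the start of the gene. In Dlg2, a synaptic scaffold gene, it lay at chr7:92321753-92322753 with melatonin (fold 4.78) and chr7:92321377-92322649 without (fold 7.51). In Magi2 it lay at chr5:19992569-19993569 with melatonin (fold 7.39) and chr5:19992098-19993374 without (fold 4.7).

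Peaks inside long genes were about as strong as the others. The authors' fold had a median of 5.22 inside and 5.11 outside long genes with melatonin, and of 4.88 inside and 4.87 outside without. The median of scaled ChIP tags was 16.5 both inside and outside with melatonin, and 18 both inside and outside without. Peaks of the smallest width, 1000 bp, made up 80.1% inside and 79% outside with melatonin, and 80.8% inside and 79.5% outside without. Folds of 10 or more were reached by 84 melatonin members (9.25%, against 7.48% outside) and 42 untreated members (4.12%, against 4.02% outside). The highest folds rested on at most 0.5 input tags. They were 44.4 in Samd12, 39.1 in Ctnnd2, a delta catenin gene, and 33.9 both in Bbs9, a cilium gene, and in Palld, the palladin gene, with melatonin. Without melatonin they were 46.1 in Zfpm2, 44.9 in Gtdc1 and 44.9 in Plxdc2, a plexin domain gene.

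Along the gene, peaks were spread almost evenly, with a smaller share in the bin at the start. Each gene was split into 10 bins of equal length, counted from its start. Position could be read for the 425 genes with a strand in the promoter table, which held 723 melatonin and 807 untreated peak midpoints. Bin 1 held 6.36% of the melatonin peaks (Wilson interval 4.8 to 8.38) and 7.56% of the untreated peaks (5.93 to 9.59), where an even spread gives 10%. The other bins held between 9.13% and 12.4% with melatonin and between 9.17% and 12% without, and of their intervals only that of bin 7 with melatonin (10.2 to 15.1) left out 10%. Within 5 kb of the gene's start there were 3 melatonin and 3 untreated peaks, where an even spread within each gene gives 6.84 and 7.26. Within 5 kb of the gene's end there were 6 and 3, against the same even numbers. Within 10 kb there were 10 and 10 at the start and 12 and 7 at the end, against 13.7 and 14.5, so the untreated count was no higher beside the end than beside the start. Within 50 kb of the start there were 48 and 60, against 68.4 and 72.6. Within 50 kb of the gene's end there were 70 and 60, against the same 68.4 and 72.6.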

How the data were processed

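H3K36me2 ChIP-seq libraries from mouse MSCs, 1 with melatonin and 1 untreated, were made by tagmentation, per the labels' protocols. Per the file headers, each library's peaks were called without pooling, against its own input, by HOMER's findPeaks with its histone settings (version not given in the sources used here). Stitched windows of 1000 bp had to pass a 4-fold excess over input and a p of 1e-04. The submitters' processing notes also name MACS2 2.1.0, Picard 1.126 and BWA 0.7.13.

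In the deposited lists, ChIP and input tags per peak are a signal that findPeaks scaled between the libraries. The score, the fold (a ratio to input) and the p-value of each peak are the authors'. They served here to describe peaks within 1 list and to filter each list before counts were compared. Overlapping pairs were ranked by the mean of fold percentiles taken within each list. Folds of 10 or more were reached by 9.25% of melatonin and 4.12% of untreated members. A shared fold cut-off may thus not be equally strict in both lists. The deposited region size is in bp.

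The processing notes name mm39. The last untreated peak on chromosome 3 ends at 159805034 and the last melatonin peak on chromosome 7 at 145328623, beyond those chromosomes in mm39. The share of midpoints in GRCm38.p6 protein-coding genes was lowest with peaks unshifted (29.1% with melatonin, 27.8% without), and between 35.5% and 42.5% at shifts of 50 kb or more. Coordinates were therefore read as GRCm38. No exons are given in the gene table used. A genome sequence was not used here.

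Even placement was computed from covered length between the first and last annotated gene or peak of each chromosome (2612 Mb in all), and tested on simulated data. Intervals are 95% Poisson, Wilson or exact binomial ones (Python 3.11.15, SciPy 1.17.1). Members and gene lists were chosen with earlier results of these data known. Named are the long genes with the most peaks, the largest differences, the densest, the longest without a peak, those with the highest folds or overlapping pairs, up to 4 per gene list, and Runx2, Zfpm2 and Esr1. Predicted genes were left out, and some named items are not reported here. Other examples without a peak or outside this rule were chosen after their values were seen. Alternatives were stricter thresholds, equal peak numbers, midpoint overlap, other length limits and left-out chromosomes or genes.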

Additional observations from a re-analysis of the deposited data

How the results depend on the processing

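No paired analysis was possible because each condition has 1 library. Of 75 alternative values, 52 stayed within the counting interval of the value reported or, for numbers of genes, within 1.5 times of it. A fold of at least 6 gave 0.913 melatonin and 0.802 untreated peaks per Mb, 155 and 142 long genes with a peak, a melatonin to untreated ratio of 1.14, and 0.346% and 0.394% of members overlapping the other library. Lists limited to an equal 3849 peaks by p gave 1.43 and 1.46 peaks per Mb and a ratio of 0.98. A length of 500 kb or more gave 2.53 melatonin peaks per Mb, 0.866 times even placement, and 111 and 109 genes with a peak. A length of 200 kb or more gave 412 and 406 genes. By construction, stricter thresholds lower the rates and other length limits change the number of genes. Without chromosomes 10 and 13, the untreated rate was 3.02 per Mb and 1.06 times even placement. Without genes of 1 Mb or more, an alternative added after seeing the data, the rates were 3.27 with melatonin and 3.53 without, and the melatonin ratio to even placement was 1.06. A reciprocal overlap of 50% left 2.09% of melatonin and 1.86% of untreated members overlapping. Over the alternatives, ratios to even placement lay between 0.866 and 1.06 for melatonin and between 0.97 and 1.06 for untreated peaks, on both sides of 1. Most peaks rest on few tags, with a median of 16.5 scaled ChIP tags in the melatonin and 18 in the untreated list, which limits how firmly a peak can be called present in one library and not in the other.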
